A study of Mus musculus with 6 samples.

Results

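The genes described here write, erase and read DNA methylation, and they were measured in the adult hippocampus of mice exposed to ethanol as pups. They are Dnmt1, Dnmt3a, Dnmt3b, Tet1, Tet2, Tet3, Mbd1, Mbd2 and Uhrf1, 9 of the 19938 genes that the array reads with a probe set of a single gene symbol. A gene was taken by its symbol in the platform annotation and, where several probe sets read it, by the brightest of them over the 6 arrays. Male C57Bl/6J mice were injected subcutaneously 2 times a day on postnatal days 4 and 7, with saline in the control group and with 2.5 g/kg ethanol per injection in saline in the ethanol-exposed group, and whole hippocampus was taken at 70 days. Each array holds RNA pooled from 3 male mice that were not littermates, with 3 arrays and 9 mice per group. The variation between single animals is not seen. The paper states that littermates matched by sex and weight were split between the saline and ethanol groups. The pool labels do not name the litters. Values are RMA expression values on the log2 scale, as deposited, and a change is the ethanol mean minus the saline mean.

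DNA methylation is the addition of a methyl group to cytosine, in mammals mostly where a guanine follows (CpG). Dnmt3a and Dnmt3b set new methyl groups, Dnmt1 copies the pattern to the daughter strand after replication, and Uhrf1 brings Dnmt1 to the half-methylated sites. The Tet enzymes oxidize methylcytosine to hydroxymethylcytosine, which is abundant in neurons and is a step toward removal of the mark. Mbd1 and Mbd2 bind methylated CpG and recruit repressor complexes. In the adult brain most neurons no longer divide, and both Dnmt3a and the Tet enzymes have been linked to memory and to activity-dependent gene expression.

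Tet3 and Dnmt3a, the genes that differed most, are shown by the sequence around their annotated starts, because both belong to the system that acts on CpG. RefSeq windows of 300 bases (250 before a start and 50 after it) were at hand for 7 of the 9 genes, with none for Mbd1 and Mbd2. Each sequence runs 5′ to 3′ on the gene's strand, with every CpG in capitals, in build GRCm38.p6. The Tet3 window lies at chr6:83441629-83441928 on the minus strand, and of the 3 Dnmt3a windows, on the plus strand and numbered 1 to 3 from upstream, numbers 2 and 3 at chr12:3806910-3807209 and chr12:3891494-3891793 are given.
Tet3: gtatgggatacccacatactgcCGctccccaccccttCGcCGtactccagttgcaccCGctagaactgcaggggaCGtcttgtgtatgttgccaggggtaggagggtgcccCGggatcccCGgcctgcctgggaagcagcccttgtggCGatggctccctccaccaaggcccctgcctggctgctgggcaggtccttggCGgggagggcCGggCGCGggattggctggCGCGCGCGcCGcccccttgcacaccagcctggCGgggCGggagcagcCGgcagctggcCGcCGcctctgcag
Dnmt3a, start 2: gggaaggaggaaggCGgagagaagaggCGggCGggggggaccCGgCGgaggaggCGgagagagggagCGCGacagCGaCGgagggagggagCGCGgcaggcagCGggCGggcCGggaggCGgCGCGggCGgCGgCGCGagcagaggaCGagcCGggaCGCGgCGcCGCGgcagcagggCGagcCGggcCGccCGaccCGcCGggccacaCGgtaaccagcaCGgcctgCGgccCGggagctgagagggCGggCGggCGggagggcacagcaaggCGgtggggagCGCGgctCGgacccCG
Dnmt3a, start 3: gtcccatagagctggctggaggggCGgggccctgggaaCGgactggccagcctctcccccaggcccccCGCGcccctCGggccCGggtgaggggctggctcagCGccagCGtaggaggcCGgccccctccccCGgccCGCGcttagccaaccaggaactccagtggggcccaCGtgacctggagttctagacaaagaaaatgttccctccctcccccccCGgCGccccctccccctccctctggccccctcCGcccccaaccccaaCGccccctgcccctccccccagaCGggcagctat
The Tet3 window holds 22 CpG, a number that 23.1% of all 32851 windows in the table reach. Dnmt3a window 2 holds 47 (reached by 1.44%), window 3 holds 18 (29.7%), and window 1, which overlaps window 2, holds 46 (1.65%). The median over all windows is 7 CpG. Among the other genes the counts ran from 2 in 1 of the 3 Dnmt1 windows to 57 in the Tet2 window, a number reached by 0.152% of windows, with 17 for Tet1 and 30 for Dnmt3b. The GC box, GGGCGG searched on both strands, is in 10 of the 12 windows of these genes and in 35.7% of all windows. These are descriptions of the letters; methylation of these windows was not analysed here.

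Of the 9 genes, 2 were lower in ethanol-exposed hippocampus at an unadjusted p under 0.05 (limma) and 0 were higher, where 2.41% of all genes were lower, 2.8% higher and 5.22% changed in either direction by the same rule. The 2 genes were the eraser Tet3 and the writer Dnmt3a. After Benjamini-Hochberg adjustment over all 23410 tested probe sets, 0 of the 9 passed (lowest adjusted p = 0.931), as did 0 of all genes (0%). The equal-variance t-test, which with 2 groups is the ANOVA that the methods name and is called the methods' t-test here, left Tet3 alone at the unadjusted threshold and 0 of the 9 after adjustment. Whole hippocampus was measured, so that fewer cells of a type cannot be told apart from less RNA per cell. Changes were small: none of the 9 passed the unadjusted threshold together with a change over 1.2-fold, which 0.276% of all genes did. The ethanol mean was below the saline mean in 7 of the 9 genes, against 49.9% of all genes, and the median change was -0.03 over the 9 genes and 0 over all genes. Ethanol and saline pools did not overlap in the same 2 genes, with ethanol lower in both. By that count 10.4% of all genes did not overlap, and 5.09% had ethanol lower.

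**Figure D1:**
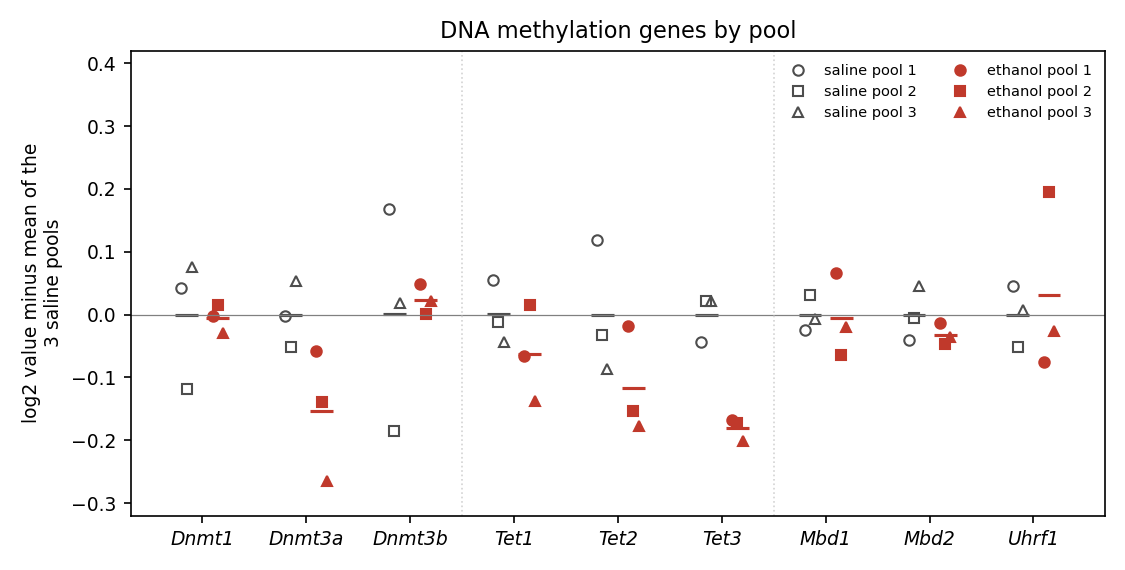
Log2 value of each of the 9 genes in each pool, after subtraction of the saline mean (saline open, ethanol filled, a symbol shape for each pool number, bars for group means). The 3 ethanol values of Tet3 lie between -0.201 and -0.167, below all saline values, and those of Dnmt3a between -0.265 and -0.058.

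Among the writers, Dnmt3a was lower and Dnmt1 and Dnmt3b did not pass the test. Dnmt3a, the main de novo methyltransferase of neurons, read 7.35, 7.30 and 7.40 in saline pools 1, 2 and 3 and 7.29, 7.21 and 7.08 in ethanol pools 1, 2 and 3. All ethanol pools were below all saline pools, but ethanol pool 1 and saline pool 2 were nearly equal and ethanol pool 3 was well below the rest. The change was -0.15 ± 0.06 (SE), or 0.899-fold, and its 95% confidence interval spans 0.819 to 0.986 of saline (limma, unadjusted p = 0.0282, adjusted p = 0.931). It was -0.20 without ethanol pool 1 and -0.10 without ethanol pool 3, where it no longer passed (unadjusted p = 0.0948 in limma). It also did not pass without saline pool 1 or saline pool 3, or in the methods' t-test (unadjusted p = 0.0835), so that the call depends on which pools are present.

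Dnmt1, the maintenance methyltransferase, read 8.73, 8.57 and 8.76 in the saline pools and 8.68, 8.70 and 8.66 in the ethanol pools. The ethanol pools lay inside the range of the saline pools, of which saline pool 2 was the lowest. Its change was -0.01 ± 0.06 (SE), and the 95% interval from 0.913 to 1.09 times the saline level includes no change. The sign turned with saline pool 1, saline pool 3 or ethanol pool 3 left out. Dnmt3b, the second de novo enzyme and known mainly from the early embryo, read 5.13, 4.77 and 4.98 in the saline pools and 5.01, 4.96 and 4.98 in the ethanol pools. Its saline pools spread more than those of 98.1% of genes and enclosed all ethanol pools. The Dnmt3b mean of 4.97 is below 5.38, under which 95% of 1194 receptor genes of the nose and vomeronasal organ lie, so its values could not be told from background and its change of 0.02 ± 0.08 (SE) gives little on the transcript.

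All Tet enzymes had an ethanol mean below the saline mean, and Tet3 alone passed the unadjusted threshold. Tet3, which oxidizes the paternal genome in the zygote and is also expressed in neurons, read 7.78, 7.85 and 7.85 in the saline pools and 7.66, 7.65 and 7.63 in the ethanol pools. The groups were separated by a gap wider than the spread inside either of them, with an SD of 0.038 between saline pools and of 0.018 between ethanol pools. The change was -0.18 ± 0.04 (SE), or 0.883-fold, with a 95% interval from 0.829 to 0.94 times the saline level (limma, unadjusted p = 0.00158, adjusted p = 0.931). Its size exceeds the change of 98.3% of all genes. Tet3 stayed past the unadjusted threshold with each of the 6 pools left out, at -0.20 to -0.17, and in the methods' t-test (unadjusted p = 0.00183).

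A second probe set of Tet3 gave a smaller difference. It read 7.75, 7.53 and 7.77 in the saline pools and 7.65, 7.68 and 7.49 in the ethanol pools, and saline pool 2 lay among the ethanol values. Its change was -0.08 ± 0.08 (SE; limma, unadjusted p = 0.337, adjusted p = 0.95). With both probe sets averaged, the change was -0.13 ± 0.05 (SE) and passed in limma (unadjusted p = 0.029, where the alternatives for Tet3 ran from 0.000747 to this value). The annotation used here does not say which part of the transcript each probe set reads.

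Tet2, which lacks the CpG-binding CXXC domain of its relatives, read 8.12, 7.97 and 7.92 in the saline pools and 7.99, 7.85 and 7.83 in the ethanol pools. Ethanol pools 2 and 3 were the lowest values, while ethanol pool 1 lay above saline pools 2 and 3. The change was -0.12 ± 0.07 (SE), or 0.923-fold, with an interval from 0.833 to 1.02 times the saline level (limma, unadjusted p = 0.109, adjusted p = 0.931). It was -0.17 without ethanol pool 1, where it passed (unadjusted p = 0.0382), and -0.06 without saline pool 1 (unadjusted p = 0.37 in limma).

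Tet1, which carries a CXXC domain and is known from embryonic stem cells and from memory studies in mice, read 9.09, 9.02 and 8.99 in the saline pools and 8.97, 9.05 and 8.90 in the ethanol pools. The groups overlapped, with ethanol pool 2 above saline pools 2 and 3. The change was -0.06 ± 0.05 (SE), with an interval from 0.884 to 1.04 times the saline level. The other two probe sets of Tet1 had changes of -0.04 ± 0.05 and -0.06 ± 0.10, so that all 3 had a lower ethanol mean, none passed the test, and ethanol pool 3 was the lowest pool in each.

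**Figure D2:**
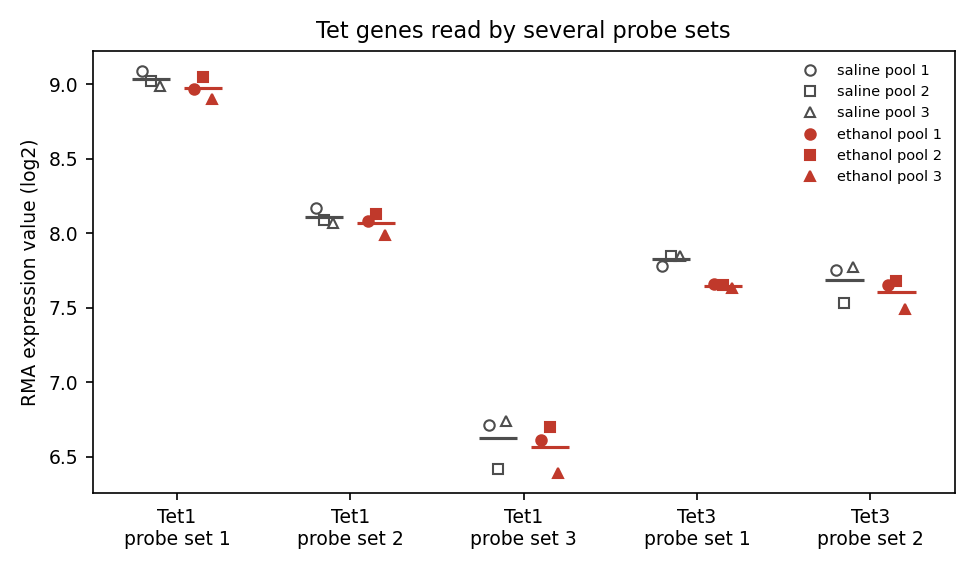
RMA expression value (log2) in each pool for the 3 probe sets of Tet1 and the 2 of Tet3, numbered from the brightest, with open symbols for saline, filled symbols for ethanol and bars for group means. The groups are apart in the brighter probe set of Tet3 and overlap in the other 4; heights of different probe sets cannot be compared, since brightness also depends on the probes.

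Among the readers, none passed the unadjusted threshold. Mbd1, which binds methylated CpG and also unmethylated CpG through a CXXC domain, read 8.32, 8.38 and 8.34 in the saline pools and 8.41, 8.28 and 8.33 in the ethanol pools. Both the highest and the lowest of its 6 values were ethanol pools, and the change was -0.01 ± 0.05 (SE), with an interval from 0.926 to 1.07 times the saline level. Mbd2, the reader that recruits the NuRD deacetylase complex, read 9.89, 9.92 and 9.97 in the saline pools and 9.91, 9.88 and 9.89 in the ethanol pools. Its range of 0.093 over all 6 pools was the narrowest of the 9 genes, and its change of -0.03 ± 0.04 (SE) has an interval from 0.918 to 1.04 times the saline level.

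Uhrf1, a reader of half-methylated CpG that is expressed mainly in dividing cells, read 4.75, 4.66 and 4.71 in the saline pools and 4.63, 4.90 and 4.68 in the ethanol pools. Ethanol pool 2 stood above the other 5 pools, which lay within a narrow band. The change was 0.03 ± 0.07 (SE), at -0.05 without ethanol pool 2, and the Uhrf1 mean of 4.72 was at the level of receptor genes. Of 8 measured genes of cycling cells, among them Mki67 (mean 5.09) and Cdk1 (4.87), 7 also lay at that level, and 0 passed the unadjusted threshold.

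**Figure D3:**
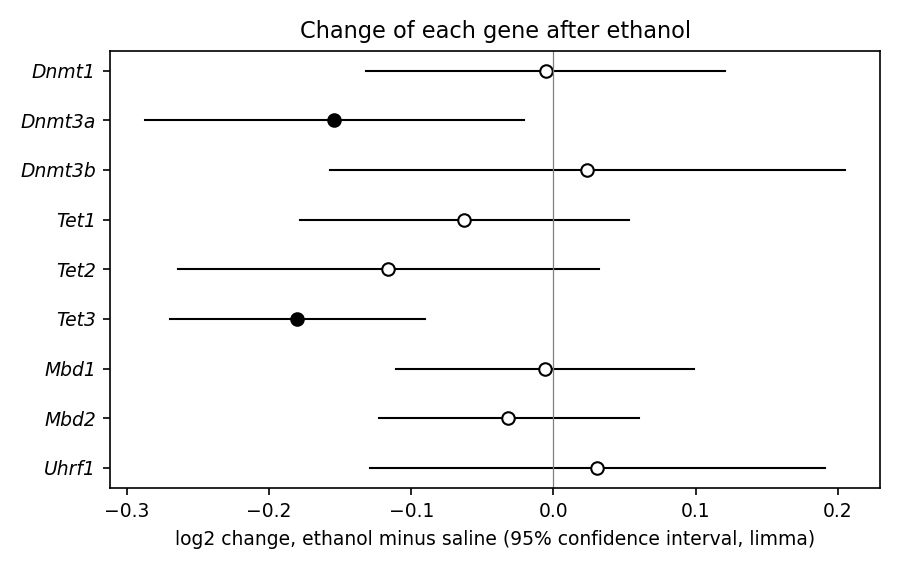
Log2 change (ethanol minus saline) of each of the 9 genes with its 95% confidence interval from limma, filled where the unadjusted p was under 0.05. The intervals of Tet3 and Dnmt3a lie below 0, and the other 7 include 0.

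Each interval bounds the change of a single gene as read by its brightest probe set. They are separate 95% intervals and not a joint bound. Over the 7 genes above the level of receptor genes, the 95% intervals lay between 0.819 and 1.09 times the saline level, with Dnmt3a at the lower end and Dnmt1 at the upper end. A larger change of a gene in the pooled RNA lies outside its interval. Array values tend to compress fold changes, however, and the dimmer probe sets of Tet1 and Tet3 are not covered.

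Across the 6 pools the 9 genes did not vary as a unit. Of the 36 pairs, 23 had a Pearson correlation above 0, with a median of 0.207, as a description over 6 arrays that share the group difference. The highest was that of Dnmt3a with Tet3 (0.793), both of which differ between the groups, and the lowest that of Mbd1 with Uhrf1 (-0.878). Ethanol pool 3 held the lowest value of 4 of the 9 genes (Dnmt3a, Tet1, Tet2 and Tet3) and was below the saline mean in 8 of 9, where 48.7% of all genes were. Ethanol pool 1 was below it in 7 (50.9% of all genes) and ethanol pool 2 in 5 (51.2%), but saline pool 2 was also below it in 7 (50.8%).

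Among 12398 other genes above the level of receptor genes, the one whose 6 values followed Tet3 most closely was Tstd2, a thiosulfate sulfurtransferase-domain gene (Pearson r = 0.993), and for Dnmt3a it was Apc, the Wnt pathway scaffold (0.997). With 6 values such likeness is common: 28 genes exceeded 0.95 for Tet3 and 63 for Dnmt3a. The closest for Tet1 was Camta2 (0.997), for Tet2 Pde1c (0.99), for Dnmt1 Fndc1 (0.99), for Mbd2 Ipo11 (0.986) and for Mbd1 F630048H11Rik (0.997). For the genes at the level of receptor genes it was Kmt2a for Dnmt3b (0.998) and Osbp2 for Uhrf1 (0.976).

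**Figure D4:**
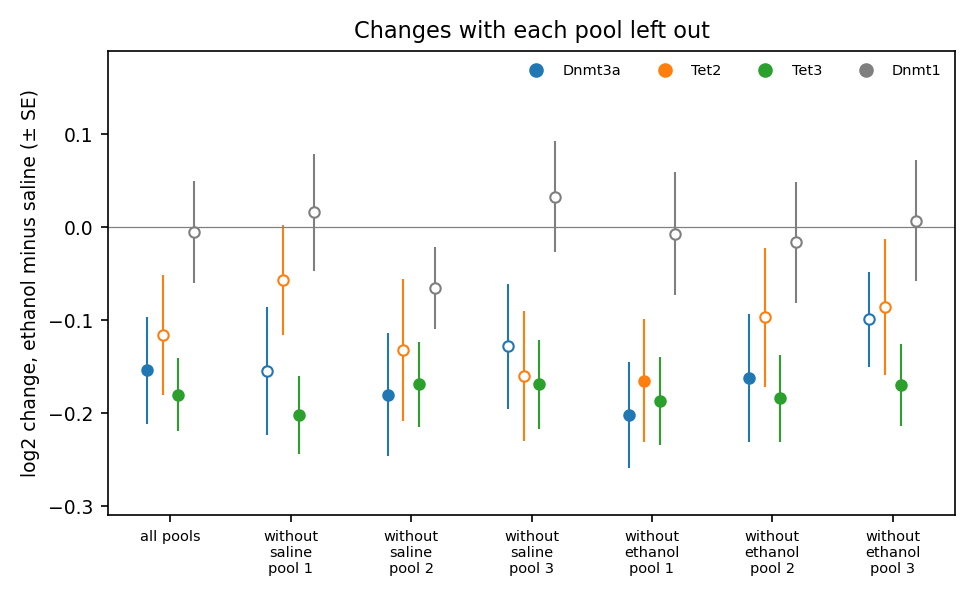
Log2 change (ethanol minus saline, ± SE) of Dnmt3a, Tet2, Tet3 and Dnmt1 with all pools and with each pool left out, filled where the unadjusted p in limma was under 0.05. Tet3 is filled in every column between -0.202 and -0.169, Dnmt3a in 4 of 7 columns, and Tet2 without ethanol pool 1 alone.

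Other genes of the same system, and 8 genes of cycling cells listed with them, were mostly level between the groups. Of 56 genes in 6 lists, cycling cells included and called the listed pathway genes here, 52 were measured. At an unadjusted p under 0.05, 1 of them was higher and none was lower (1.92%, against 5.22% of all genes). In limma 0 passed after adjustment, and the median change was -0.00. The gene that passed was Apobec2, a relative of the cytidine deaminases, at 0.12 ± 0.05 (SE), with a mean in the range of receptor genes. Of the 9 genes described above, 2 passed by the same rule; the difference between these shares was not tested. The count of 1 in the lists was 0 without saline pool 3 or ethanol pool 3, 2 without saline pool 2 or ethanol pool 1, 3 without ethanol pool 2 and 4 without saline pool 1.

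Partners of the writers did not pass. In this list of 8 genes the changes ran from -0.17 to 0.06, with a median of -0.01, and it holds Dnmt3l, the inactive relative that stimulates de novo methylation in germ cells (-0.03 ± 0.04, SE, at the level of receptor genes), and Hells, a helicase needed for methylation of repeats (0.06 ± 0.07, also at that level). The lowest of them was Cdca7, a partner of Hells named after its value was seen, at -0.17 ± 0.08 (unadjusted p = 0.0612 in limma). Of 6 other listed genes of the Mbd and Zbtb families, 0 passed, with Mbd3 of the NuRD complex at 0.03 ± 0.04 and the repair glycosylase Mbd4 at 0.05 ± 0.05. Of 5 proteins that bind unmethylated CpG, 0 passed, with Cxxc1, a subunit of an H3K4 methyltransferase complex, at 0.00 ± 0.04 and Cxxc4, a partner of Tet2, at 0.07 ± 0.06.

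The 14 measured genes listed under base excision and active demethylation had a median change of -0.01, between -0.10 and 0.12, and Apobec2 was the one that passed. Of 11 NuRD subunits, the complex that Mbd2 recruits, 0 passed, with the remodelling ATPases Chd4 at -0.08 ± 0.06 (SE) and Chd3 at -0.02 ± 0.04. Of 8 genes of cycling cells, Mki67 was at -0.06 ± 0.05 and Top2a at 0.18 ± 0.10.

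**Figure D5:**
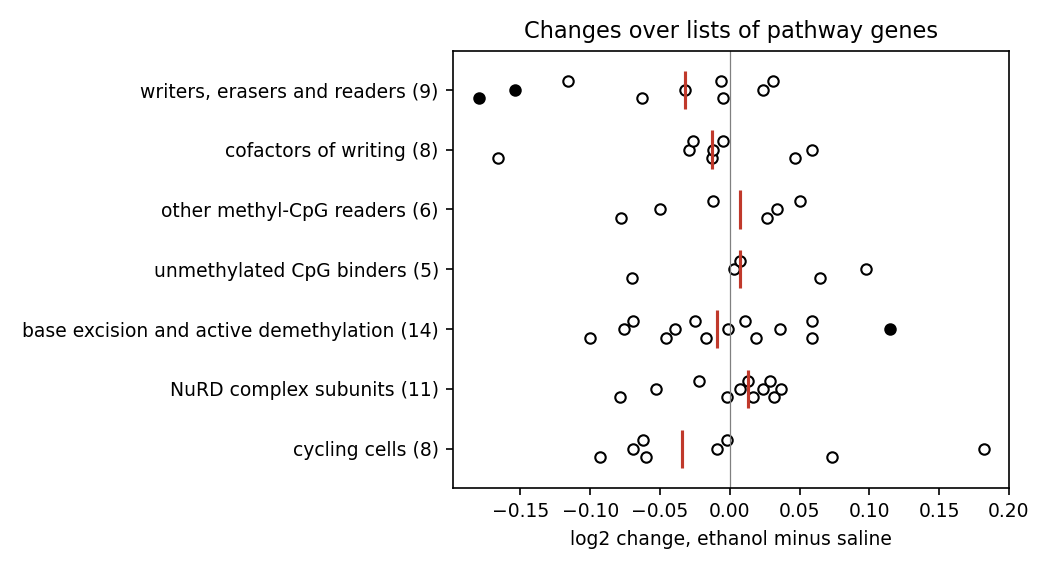
Log2 change (ethanol minus saline) of each of the 9 genes and of each measured gene in 6 lists of related genes, with the number of genes in parentheses, red lines for medians and filled symbols where the unadjusted p in limma was under 0.05; the vertical offset of symbols only separates them. Changes lie between -0.18 and 0.18, and the filled symbols are Tet3 and Dnmt3a at the left and Apobec2 at the right.

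Markers of the hippocampus and of neighbouring tissue differed between pools. All 8 markers of hippocampal principal neurons were above the level of receptor genes and 0 passed the test, but relative to saline their mean stood at 0.046, 0.016 and -0.094 in ethanol pools 1, 2 and 3, against -0.018 to 0.019 in the saline pools. In ethanol pool 3, the pool in which Dnmt3a and the Tet genes were lowest, the 8 markers did not all move the same way. Prox1 of dentate granule cells read 9.57, below the other 5 pools, as did Zbtb20 (11.01) and Dsp (8.14). Neurod6 (10.98) was higher there than in the other 5 pools. Wfs1 (10.45), Fibcd1 (9.16) and Grik4 (9.84) lay inside the range of the saline pools. C1ql2 read 9.85 in both ethanol pools 2 and 3, below the saline pools. Prox1, Dsp and C1ql2 did move alike. Each was highest in ethanol pool 1 (9.96, 8.58 and 10.06) and below every saline pool in ethanol pool 3. Of 10 thalamus markers 8 were higher at the unadjusted threshold; relative to saline their mean stood at 0.811, 0.334 and 0.122 in ethanol pools 1, 2 and 3, against -0.018 to 0.03 in the saline pools, with Shox2 and Gbx2 at the level of receptor genes. Of 9 choroid plexus markers 2 were higher, with means at 1.052, -0.317 and 0.626 in the ethanol pools and -0.181 to 0.2 in the saline pools. Of 7 oligodendrocyte genes 2 were lower, with means at -0.073, -0.169 and -0.024 against -0.071 to 0.075. Of 6 pan-neuronal genes, 8 genes of meninges and fibroblasts and 6 genes each of astrocytes, microglia and endothelium, 0 passed. Their means in the ethanol pools ran from -0.003 to 0.009 for pan-neuronal genes, -0.118 to 0.219 for meninges and fibroblasts, -0.095 to -0.028 for astrocytes, -0.077 to -0.018 for microglia and -0.062 to 0.04 for endothelium. In the saline pools they ran from -0.016 to 0.012, -0.049 to 0.083, -0.063 to 0.035, -0.063 to 0.056 and -0.031 to 0.028 in the same order. The part of these in the lower Tet3 and Dnmt3a values was not tested; without ethanol pool 1, which had the highest mean of both the thalamus and the choroid plexus list, Tet3 was at -0.19 and Dnmt3a at -0.20, without ethanol pool 3 they were at -0.17 and -0.10, and Tet3 was nearly equal in the 3 ethanol pools.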

How the data were processed

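RNA was hybridized to Affymetrix Mouse Gene 1.0 ST arrays, and groups were taken from the treatment label. The authors ran RMA, which corrects the background, equalizes the arrays and summarizes each probe set, and the deposited log2 values were used unchanged. The version of RMA is not given in the sources used here. Of 35556 probe sets, the 23410 with a gene symbol in the platform annotation were compared between the groups in limma 3.58.1 (R 4.3.3; lmFit, then eBayes), two-sided and with no covariate, with Benjamini-Hochberg adjustment over all of them. The methods name an ANOVA, which with 2 groups is the methods' t-test. With 3 arrays per group the smallest p of an exact permutation test is 0.1, so none was run. The number of arrays limits the precision, and their lowest pairwise correlation over all probe sets was 0.997. The procedure was tested on simulated data. Figures were drawn with matplotlib 3.10.9.

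The 9 genes and the lists were chosen with earlier results of these data known. Named are all 9 genes, in each list up to 4 genes past the unadjusted threshold or, where none passed, the first 2 measured, and for each of the 9 genes the gene with the highest correlation. Cdca7, Cdk1 and the single tissue markers were named after their values were seen. Of the 56 listed pathway genes, 4 had no probe set with that single symbol, and 1 further pathway list is not reported here. Alternatives were the methods' t-test, a replicate block, quantile normalization, median centring, removal of dim probe sets by 2 limits, all rows, single-symbol probe sets, averaged probe sets per gene, array weights, an intensity trend and each array left out. The other arrays of the study were not analysed here.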

Additional observations from a re-analysis of the deposited data

How the results depend on the processing

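Tet3 was lower and past the unadjusted threshold under all 17 alternatives, with unadjusted p from 0.000747 to 0.029 in limma or the methods' t-test. All of them used its brighter probe set, alone or averaged with the second. The second alone did not pass (-0.08 ± 0.08, SE, unadjusted p = 0.337 in limma). Dnmt3a was lower under all 17 and missed the threshold in 4: in the methods' t-test (-0.154) and without saline pool 1, saline pool 3 or ethanol pool 3. Over all 6 pools left out in turn it ran from -0.202 to -0.099. Tet2 passed under the replicate block (-0.116) and without ethanol pool 1, with pools left out giving -0.165 to -0.057. Tet1 and Mbd2 kept sign and side of the threshold under all 17. Signs turned only with pools left out: Dnmt1 ran from -0.065 to 0.033, Dnmt3b from -0.069 to 0.108, Mbd1 from -0.042 to 0.023 and Uhrf1 from -0.051 to 0.084. The number of the 9 genes past the unadjusted threshold was 2, with 1 in the methods' t-test, 0 over 1.2-fold as well, and 1 to 3 with pools left out. It was 0 after adjustment under every alternative. No fewer than 2 genes had pools that did not overlap, but most alternatives could not lower this count. Another test or filter leaves the values of a gene as they are, and leaving a pool out cannot create overlap. Median centring, quantile normalization and averaged probe sets did change the values, and the count was 2 in each. The count of listed pathway genes past the unadjusted threshold was 1, with 0 under quantile normalization and over all rows, 3 with array weights and 0 to 4 with pools left out. It was also 0 with either filter on dim probe sets. Both filters remove Apobec2, the gene that passed, and leave 34 or 41 of the 52 genes.

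The pool numbers in the titles were not found to pair the samples: same-numbered pools correlated at -0.049, -0.022 and 0.059 in their deviations from the group means. With 3 pools per group, these correlations cannot show whether pools of the 2 groups share litters. With the replicate block, 3 of the 9 genes passed the unadjusted threshold (Tet3, Dnmt3a and Tet2). Dnmt3b and Uhrf1 lay below both filters. Signal near background limits what can be said of these genes.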
